A study of Mus musculus with 8 samples.

Results

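The genes of the proteasome and of the enzymes that attach or remove ubiquitin were taken from the mouse array by symbol. These were the genes whose symbols begin with *Psma* to *Psmg*, *Ube1* to *Ube3*, *Usp*, *Cul*, *Fbxo*, *Fbxw*, *Fbxl*, *Otu* or *Skp*, apart from *Ube2n*. They came to 110 of the 11667 genes tested, each represented by its probe set of highest mean. Of the 110, 23 belong to the proteasome, 12 are E2 enzymes, 45 are parts of ubiquitin ligases and 29 belong to families of deubiquitinases. The remaining 1, *Psmc3ip*, matched by its name alone and encodes a protein of meiotic recombination. No gene with a symbol beginning *Ube1* was measured, so the group of E1 and E2 enzymes held E2 enzymes alone.

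Tumours were grown from HM-1 cells, a mouse ovarian cancer line, which were injected under the skin of the right flank of B6C3F1 mice. The sample labels give day 3 as the start of treatment, while the paper's methods give 4 days after inoculation. The mice were given either an anti-VEGF antibody, which blocks the growth factor that tumour vessels depend on, or rat IgG as control. Both were injected into the peritoneum 2 times a week until the mice were killed, and tumours were taken once their long diameter was 1.5 cm. RNA of 4 tumours per group was hybridised with 1 array per tumour, called anti-VEGF 1 to 4 and control 1 to 4 below. The question put to the values was how the messages of the ubiquitin and proteasome system differed between anti-VEGF and control tumours. The labels do not say that each array stands for a separate mouse, so the p-values measure the spread between these samples.

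Ubiquitin is a small protein that cells join to other proteins as a mark. An E1 enzyme activates it, an E2 enzyme carries it and a ligase, the E3, passes it to a chosen target. Cullins are scaffolds of the largest ligase family, in which F-box proteins of the Fbxo, Fbxw and Fbxl families bind the targets, and HECT-type ligases take up the ubiquitin themselves first. Deubiquitinases cut the mark off again. Proteins that carry chains of ubiquitin are unfolded and cut up by the proteasome, a barrel (the core particle) capped by a regulatory particle. In cells exposed to interferon, other catalytic subunits replace the usual ones and form the immunoproteasome, whose cuts suit the presentation of peptides on MHC class I molecules.

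Values are log2 expression as deposited, and a log2 fold change is anti-VEGF minus control. Values were spread more widely on anti-VEGF arrays, whose standard deviation over genes was 1.99 to 2.08, than on control arrays, where it was 1.12 to 1.66. Quantile normalisation gives arrays 1 spread only for the values it is applied to. In RMA, the procedure named for these data, that is done on probes before their summary, and a selection of probe sets was deposited. The spreads therefore do not settle whether the deposited values include such a step. The fold change followed the level of a gene. Genes were ranked by mean level over the 8 arrays and split into 3 tertiles, with bounds at 4.08 and 5.56. In limma's test with Benjamini-Hochberg adjustment over all genes, 51.3% of genes in the highest tertile rose at an adjusted p under 0.05, 6.04% in the middle and 0.0514% in the lowest, and 4.55%, 45% and 90.3% fell. The median log2 fold change over all genes was -0.44 as deposited. Group results are therefore also given after quantile normalisation of the deposited values, which gives all arrays 1 distribution and brought that median to -0.03. Groups and many single genes are also set beside the median of the 500 genes nearest in mean level. Control 3 stood apart from the rest, with a Pearson r over genes of 0.774 to 0.869 to each. Of 9 measured markers of the HM-1 tumour cells 4 rose, all 4 in the highest tertile of level, and 2 fell. After quantile normalisation 1 of the 9 rose and 2 fell. Of 12 measured leukocyte markers 5 rose and 4 fell, and their mean log2 expression was 6.01 to 6.35 on anti-VEGF arrays and 5.30 to 5.96 on control arrays. After quantile normalisation 2 of the 12 rose and 0 fell. *Itgam*, a marker of myeloid cells, rose by 1.68 and passed on that scale too (0.86), where genes at its level had a median of 1.02 as deposited. *Cd8a*, a marker of cytotoxic T cells, fell by 1.03, and after quantile normalisation it had -0.65 and was not called (limma adjusted p = 0.16). The leukocyte markers *Csf1r* and *Cd3d* changed sign between these scales, with 0.82 and -0.04, and with -0.45 and 0.26. Of 5 endothelial and pericyte markers 1 fell, of 6 skeletal muscle markers 3 fell, and the 1 fibroblast marker measured rose. The part of these cell types in the results below was not tested. Pancreatic acinar genes, which encode digestive enzymes, also moved with the groups. All 24 measured genes of that list fell, and their mean log2 expression was 9.19, 4.19, 4.60 and 6.43 on anti-VEGF 1 to 4 and 10.52, 9.67, 8.85 and 10.38 on control 1 to 4. With this acinar level as a covariate in the limma fit, no call was left in any group of genes described below, while the median log2 fold change of the 110 genes was 0.47, against 0.27 without it. Only anti-VEGF 1 lay within the control range of 8.85 to 10.52, so the fit cannot separate acinar level well from treatment. The loss of calls therefore does not show that the acinar level accounts for them. Tumours were measured in bulk, so fewer cells of a type and less RNA per cell cannot be told apart.

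On the deposited scale most proteasome genes were higher in anti-VEGF tumours, by about as much as other genes of their level. Of the 23, 17 rose, 2 fell and 4 did not pass the threshold, and the median log2 fold change was 0.89. Over all genes 19.1% rose and 46.6% fell. As 20 of the 23 lay in the highest tertile of level, where 51.3% of all genes rose, the 17 that rose there were 17 of 20. There was no overlap between the groups in 19 of the 23, against 61.3% of all genes, a share that is not matched for level. The median of the 500 nearest genes lay below 12 of the 23 and above 11, and the median excess of the proteasome genes was 0.07. After quantile normalisation 2 rose and 1 fell, with a median of 0.15, where 7.47% of all genes rose and 4.45% fell. On that scale 8 of the 23 had no overlap, against 25.4% of all genes. Control 3 had the lowest value of all 8 arrays for 19 of the 23 genes. Without it all 17 rises stayed past the threshold, 3 genes fell and the median log2 fold change was 0.57.

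**Figure D1:**
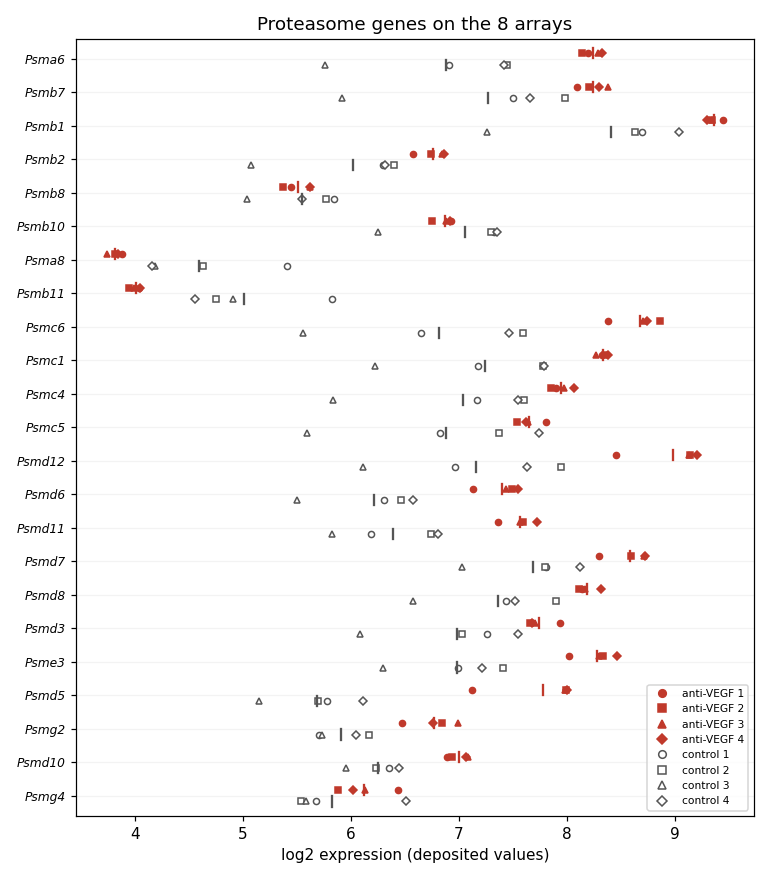
Log2 expression (deposited values, x axis) of the 23 proteasome genes on each of the 8 arrays, with filled red symbols for anti-VEGF tumours, open grey symbols for control tumours and a vertical bar for each group mean. Core particle genes are at the top, then ATPases and non-ATPases of the regulatory particle, the activator and assembly chaperones, and control 3 (open triangle) is the lowest of the 8 arrays for 19 of the 23 genes.

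The largest difference among proteasome genes was that of *Psmd5*, a chaperone that helps to assemble the regulatory particle and is not part of the finished proteasome. It had a log2 expression of 7.12, 7.99, 7.99 and 8.0 on anti-VEGF 1 to 4 and of 5.78, 5.70, 5.15 and 6.11 on control 1 to 4. Every anti-VEGF value lay above every control value, and anti-VEGF 1 was the lowest of its group. Its log2 fold change came to 2.09 (standard error 0.26, limma adjusted p = 0.00086), a 4.26-fold difference, while the 500 genes nearest in level had a median of 0.73. After quantile normalisation it was 1.67 (limma adjusted p = 0.0168). The other assembly chaperones moved less. *Psmg2*, a chaperone that helps to build the outer ring of the core, rose by 0.85 and *Psmd10*, also called gankyrin, by 0.75 (limma adjusted p = 0.00347 and 0.00388). *Psmg4*, a chaperone of the core particle, had a log2 fold change of 0.29 and did not pass, with control 4 at 6.51 above all anti-VEGF arrays. After quantile normalisation the values of these 3 were 0.38, 0.11 and 0.04, none of them called.

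All 6 measured non-ATPase subunits of the regulatory particle rose, and all 6 belong to its lid, the part that holds the enzyme removing ubiquitin chains. All 6 lay in the highest tertile of level, where 51.3% of all genes rose. The median of the 500 nearest genes lay below 3 of the 6 and above 3, and 1 of the 6 rose after quantile normalisation. *Psmd12* was 8.46, 9.14, 9.13 and 9.20 on anti-VEGF 1 to 4 and 6.96, 7.94, 6.11 and 7.63 on control 1 to 4, with no overlap. The difference was 1.82 on the log2 scale (standard error 0.36, limma adjusted p = 0.00244) and 1.02 after quantile normalisation (limma adjusted p = 0.0342), where genes at its level had a median of 1.00 as deposited. *Psmd6* differed by 1.19 and *Psmd11*, which clamps the regulatory particle onto the core, by 1.17. After quantile normalisation *Psmd6* had 0.61 (limma adjusted p = 0.0526) and *Psmd11* 0.50 (0.0925), short of the threshold. After cyclic loess, a further way to bring arrays to 1 scale, *Psmd6* passed (0.47, limma adjusted p = 0.0203) and *Psmd11* did not. *Psmd7*, *Psmd8* and *Psmd3* rose by 0.89, 0.83 and 0.76. Their values were -0.02, -0.08 and -0.04 after quantile normalisation, so their direction was not kept, and the 500 genes nearest to each in level had medians of 1.00, 1.03 and 0.90. In *Psmd3* the call was lost without any 1 anti-VEGF array or without control 2 (limma adjusted p 0.0556 to 0.0805).

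Of 4 measured ATPases, the ring of subunits that unfolds proteins, 3 rose. All 4 lay in the highest tertile of level, where 51.3% of all genes rose. The median of the 500 nearest genes lay below 2 of the 4 and above 2, and 0 were called after quantile normalisation. *Psmc6* was 8.38, 8.86, 8.70 and 8.74 on anti-VEGF 1 to 4 and 6.65, 7.60, 5.56 and 7.47 on control 1 to 4. Its log2 fold change of 1.85 (standard error 0.39, limma adjusted p = 0.00302) stood above the median of 1.03 of genes at its level. After quantile normalisation it was 1.16, at a limma adjusted p of 0.0535, and after cyclic loess it passed (0.90, limma adjusted p = 0.0170). *Psmc1* had 1.09 and *Psmc4* 0.91, and after quantile normalisation 0.23 and 0.13. *Psmc5* had 0.77 and was not called, and control 4 at 7.74 lay within the anti-VEGF range of 7.54 to 7.80. *Psme3*, which encodes a nuclear activator that opens the core without ubiquitin, rose by 1.30 (limma adjusted p = 0.00198) and had 0.42 after quantile normalisation (0.0838).

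Of the 8 measured core particle genes 4 rose, 2 fell and 2 did not pass. The 4 that rose were among 5 in the highest tertile of level, where 51.3% of all genes rose. The 2 that fell were among 3 in the middle tertile, where 45% fell. The median of the 500 nearest genes lay below 3 of the 8 and above 5. *Psma6*, part of the outer ring that gates the barrel, rose by 1.35 (standard error 0.33, limma adjusted p = 0.00567), where genes at its level had a median of 1.02. *Psmb7*, a catalytic subunit, and *Psmb1* and *Psmb2*, structural subunits of the inner ring, rose by 0.98, 0.95 and 0.73. None of these 4 was called after quantile normalisation, with values of 0.57, 0.15, 0.16 and 0.39. The calls of *Psmb1*, *Psmb2* and *Psmb7*, and that of the ATPase *Psmc4*, were each lost when any 1 anti-VEGF array was left out, and those of *Psmb7* and *Psmc4* also without control 1 (limma adjusted p 0.0504 to 0.0889). Both that fell are tissue-restricted subunits. *Psmb11*, the catalytic subunit of the thymus, fell by 1.00 and *Psma8*, a subunit of the testis, fell by 0.78 (limma adjusted p = 0.00669 and 0.0238). Both were dim, with means of 4.01 and 3.82 in anti-VEGF tumours and 5.01 and 4.60 in control tumours, and genes at their levels had medians of -0.55 and -0.67. After quantile normalisation they had -0.56 and -0.09, neither of them called. The call of *Psma8* was lost without anti-VEGF 2, 3 or 4 (limma adjusted p 0.0514 to 0.0595).

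The 2 core genes that did not pass were the measured immunoproteasome subunits. *Psmb10* was 6.93, 6.75, 6.88 and 6.92 on anti-VEGF 1 to 4 and 7.33, 7.30, 6.25 and 7.35 on control 1 to 4. The anti-VEGF values lay below 3 of the control values and above control 3. Anti-VEGF over control, this came to -0.19 on the log2 scale (standard error 0.25, limma adjusted p = 0.512), where genes at its level had a median of 0.80. Without control 3 it was -0.46 (limma adjusted p = 0.0101). After quantile normalisation *Psmb10* was 6.65, 6.5, 6.57 and 6.59 on anti-VEGF 1 to 4 and 7.62, 7.5, 7.39 and 7.40 on control 1 to 4, a difference of -0.90 (limma adjusted p = 0.0143). It was the only proteasome gene called lower on that scale. With each array centred on its median it had 0.23, so its direction turned on the scaling. *Psmb8*, the immunoproteasome form of the chymotrypsin-like subunit, was 5.44, 5.37, 5.62 and 5.62 on anti-VEGF 1 to 4 and 5.84, 5.77, 5.04 and 5.55 on control 1 to 4. The groups overlapped, with -0.04 on the deposited scale and -0.02 after quantile normalisation, and no call on either.

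A difference between 2 genes within an array does not depend on a shift of the whole array. It does depend on the spread of values on the array, which differed between the groups as deposited. Of 10 pairs of related genes that were to be compared in this way, only *Psmb10* and *Psmb7* were both measured. In the immunoproteasome the product of *Psmb10* takes the place of that of *Psmb7*. *Psmb10* minus *Psmb7* was -1.16, -1.45, -1.51 and -1.38 on anti-VEGF 1 to 4 and -0.18, -0.68, 0.33 and -0.31 on control 1 to 4. All 4 anti-VEGF values lay below all 4 control values. The means were -1.37 ± 0.15 in anti-VEGF tumours and -0.21 ± 0.42 in control tumours (SD, n = 4 each), a difference of -1.16 with a two-sided exact permutation p of 0.0286, the smallest that 70 assignments of the arrays allow. After quantile normalisation the difference was -1.05 with the same exact p of 0.0286. The value shows an unequal change of the pair and not which of them changed.

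Promoter sequence was examined for 3 short motifs, on both strands, from 250 bases before to 50 bases after the start of each gene (RefSeq, build GRCm38.p6). Of the 110 genes, 83 had an entry, 16 of them proteasome genes. The first motif was TGACNNNGC, the core of the site of NFE2L1 and NFE2L2, of which NFE2L1 is known to raise proteasome genes when the proteasome is inhibited. It was found in 2 of 16 proteasome promoters (12.5%), against 13.99% of 27025 promoters. CCAAT, the box bound by NF-Y, was found in 5 of 16 (31.25%), against 41.06%. The interferon-stimulated response element, searched for in a short form, was found in 1 of 16 (6.25%), against 3.993%. Overlaps between motifs were not removed. The promoters of *Psmd5*, *Psmb8* and *Psmb10* held none of the 3 within this window. The TGACNNNGC core lay in both of the proteasome genes of largest fold change in the regulatory particle, *Psmc6* and *Psmd12*, and in the deubiquitinase gene *Usp25*, described below. The first 60 bases of these windows, from -250 to -191 relative to the start, are shown with the match in capitals. In *Psmc6* and *Psmd12* the match runs on the opposite strand and is printed as it reads on the strand of the gene.
*Psmc6*, chr14:45329574-45329633, plus strand: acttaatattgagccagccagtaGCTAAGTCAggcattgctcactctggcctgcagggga
*Psmd12*, chr11:107479278-107479337, plus strand: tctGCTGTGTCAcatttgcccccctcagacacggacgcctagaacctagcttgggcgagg
*Usp25*, chr16:77013819-77013878, plus strand: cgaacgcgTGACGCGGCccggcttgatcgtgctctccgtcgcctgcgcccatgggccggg
The same core was found in 7 of 23 promoters of deubiquitinases (30.43%), 2 of 11 of E2 enzymes and 3 of 32 of ligase parts. Of these deubiquitinases only *Usp25* rose on the deposited scale. *Usp17la* and *Usp26* fell, and *Otud1*, *Otud3*, *Usp13* and *Usp17lc* were not called. A match of letters is a description of the window and does not show that a factor binds there.

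Among the 12 E2 enzymes 5 rose, 4 fell and 3 did not pass, where 19.1% of all genes rose and 46.6% fell, with a median log2 fold change of 0.45. It was 0.10 without control 3, and -0.009 after quantile normalisation. In 9 of the 12 every value of one group lay beyond those of the other, against 61.3% of all genes, not matched for level. All 5 that rose were among the 8 in the highest tertile of level, where 51.3% of all genes rose. *Ube2f*, which carries NEDD8 to cullins, was 6.55, 6.79, 6.88 and 6.92 on anti-VEGF 1 to 4 and 5.35, 5.72, 4.95 and 5.98 on control 1 to 4. Its log2 fold change was 1.28 (standard error 0.23, limma adjusted p = 0.00171) and 1.10 after quantile normalisation (0.0367). *Ube2a*, which marks histones and the DNA clamp PCNA, was 6.11, 6.26, 6.32 and 6.64 on anti-VEGF 1 to 4. On control 1 to 4 it was nearly the same on each array, at 5.26, 5.27, 5.29 and 5.34. This gave 1.04 (standard error 0.16, limma adjusted p = 0.00124), above the median of 0.24 of genes at its level, and 0.92 after quantile normalisation (0.0184). These 2 were the E2 genes that rose on both scales.

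*Ube2j1*, which works at the endoplasmic reticulum, *Ube2d2a*, a partner of many ligases, and *Ube2z* rose by 1.28, 1.25 and 1.04. After quantile normalisation they had 0.41, 0.49 and 0.11 and were not called. The E2 enzymes of the anaphase-promoting complex, which drives cells out of mitosis, behaved otherwise. *Ube2c* was 7.38, 7.45, 7.49 and 7.71 on anti-VEGF 1 to 4 and 7.51, 7.83, 6.36 and 7.38 on control 1 to 4. The groups overlapped, and only control 3 lay below all anti-VEGF arrays. Its log2 fold change was 0.24 (limma adjusted p = 0.463), -0.07 without control 3, and -0.58 after quantile normalisation (limma adjusted p = 0.045). Genes at its level had a median of 0.91 on the deposited scale. *Ube2s*, which extends the chains that *Ube2c* begins, had 0.66 (limma adjusted p = 0.103) and -0.13 after quantile normalisation. *Ube2l6*, which carries the interferon-induced modifier ISG15, had -0.07 and -0.06. The 4 that fell were *Ube2dnl2* (-1.29), *Ube2u* (-1.15), *Ube2dnl1* (-1.13) and *Ube2d2b* (-0.76). Of these 4, 3 lay in the lowest tertile of level, where 90.3% of all genes fell, and none was called after quantile normalisation.

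Of the 45 ligase parts 13 rose, 17 fell and 15 did not pass, and the median log2 fold change was -0.07. These counts stand beside 19.1% of all genes that rose and 46.6% that fell. After quantile normalisation 7 rose and 1 fell, with a median of 0.04. In 31 of the 45 the groups did not overlap, a share near the 61.3% of all genes. Of the 17 that fell, 13 were *Fbxw* genes of chromosome 9, described below. Among the genes tested the only cullin was *Cul4b*, the scaffold of ligases that act on chromatin proteins. It was 6.65, 7.55, 7.37 and 7.14 on anti-VEGF 1 to 4 and 5.60, 5.91, 5.19 and 5.88 on control 1 to 4. Its log2 fold change was 1.53 (standard error 0.24, limma adjusted p = 0.00122), against a median of 0.61 of genes at its level, and 1.20 after quantile normalisation (0.0214). *Skp2*, an F-box protein that marks inhibitors of the cell cycle, had 0.37 and was not called (limma adjusted p = 0.0715), although its values of 6.41 to 6.66 in anti-VEGF tumours lay just above those of 5.93 to 6.36 in control tumours. After quantile normalisation *Skp2* had -0.19.

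Of the 17 *Fbxo* genes 6 rose, 3 fell and 8 did not pass, where 19.1% of all genes rose and 46.6% fell. In the highest tertile of level lay 8 of the 17, of which 5 rose, where 51.3% of all genes did. Of the 17, 12 lay above the median of genes at their level. *Fbxo11*, whose product marks the transcription factor BCL6 for degradation, was 8.22, 8.72, 8.62 and 8.54 on anti-VEGF 1 to 4 and 6.59, 7.10, 5.83 and 7.27 on control 1 to 4. Anti-VEGF 1, the lowest of its group, lay above all control values. The log2 fold change was 1.83 (standard error 0.29, limma adjusted p = 0.00128), a 3.55-fold difference, and 1.05 after quantile normalisation (0.0184), where genes at its level had a median of 1.01 as deposited. *Fbxo38*, *Fbxo3* and *Fbxo33* rose by 1.33, 1.22 and 0.69 and had 0.81, 0.62 and 1.09 after quantile normalisation, all past the threshold, and genes at the level of *Fbxo33* had a median of -0.37. After cyclic loess *Fbxo3* had 0.57 and just missed it (limma adjusted p = 0.0526). Another pair of *Fbxo* genes was not called on the deposited scale but passed after quantile normalisation and after cyclic loess. *Fbxo47* had -0.09 on the deposited scale and 0.80 after quantile normalisation (limma adjusted p = 0.0305). *Fbxo2*, which binds sugar-bearing proteins, had -0.38 and -0.83 (limma adjusted p = 0.158 and 0.0244), and without control 3 it also passed as deposited (-0.57, limma adjusted p = 0.0137).

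Of 3 HECT-type ligases 2 rose, both in the highest tertile of level, where 51.3% of all genes rose. *Ube3c*, which binds the proteasome and extends chains on its substrates, was 7.58, 8.06, 7.89 and 7.87 on anti-VEGF 1 to 4 and 6.21, 6.37, 5.17 and 6.83 on control 1 to 4. The difference was 1.71 on the log2 scale (standard error 0.31, limma adjusted p = 0.00182) and 1.20 after quantile normalisation (0.0436), where genes at its level had a median of 0.77 as deposited. *Ube3b* rose by 1.09 and had 0.42 after quantile normalisation. In the *Fbxl* group, *Skp2* included, 2 of 8 genes rose and 6 did not pass. Of the 8, 7 were in the highest tertile, where 51.3% of all genes rose, their median log2 fold change was 0.20, and 6 of the 8 lay below the median of genes at their level. After quantile normalisation none of the 8 was called and their median was -0.17.

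The 13 measured *Fbxw* genes of chromosome 9 all fell on the deposited scale. In the RefSeq order of genes they lie in a run of 15 protein-coding genes, all 15 of them *Fbxw*. The genes of this mouse family are close copies of each other, and how the probe sets tell them apart was not examined, so the 13 values are uncertain as separate measurements. Their log2 fold changes were -1.58 to -0.93 with a median of -1.14. All 13 lay in the lowest tertile of level, where 90.3% of all genes fell, and the median of genes at their level was -1.16. In 12 of the 13 there was no overlap, against 61.3% of all genes, a share that is not matched for level. *Fbxw24* had the largest difference, with 2.11, 1.69, 1.73 and 1.79 on anti-VEGF 1 to 4 and 3.02, 3.12, 4.38 and 3.12 on control 1 to 4 (log2 fold change -1.58, limma adjusted p = 0.00193). Control 3 was the highest array for it, and without control 3 the value was -1.26. *Fbxw18* had -1.42 and *Fbxw28* -1.41. After quantile normalisation none of the 13 was called, their median was 0.002 and the groups overlapped for each.

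**Figure D2:**
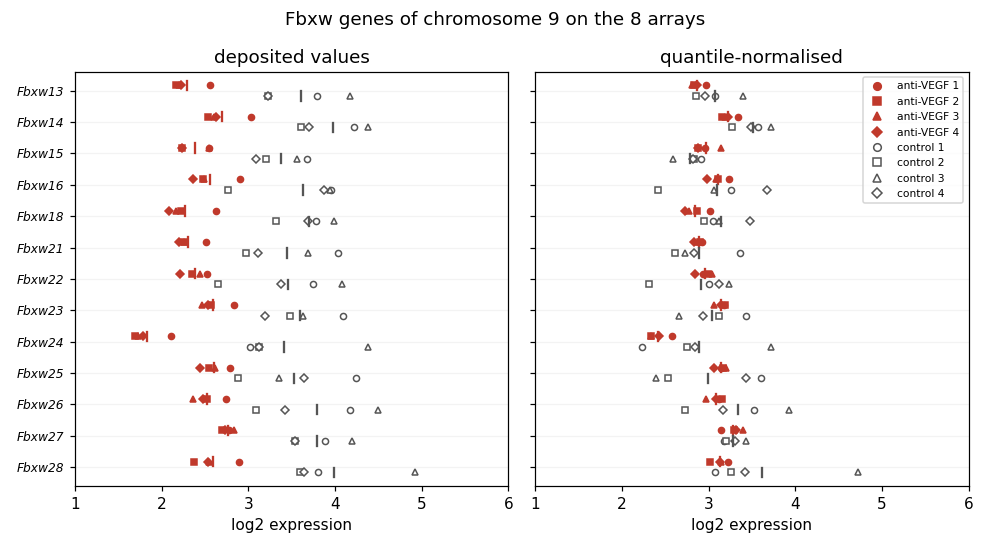
Log2 expression (x axis) of the 13 Fbxw genes of chromosome 9 on the 8 arrays, as deposited (left) and after quantile normalisation (right), with filled red symbols for anti-VEGF tumours, open grey symbols for control tumours and bars for the group means. As deposited, the groups do not overlap for 12 of the 13 genes, and after quantile normalisation they overlap for all 13.

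Promoter sequence is shown for this run because its genes are close copies, with values that are uncertain as separate measurements. Of the 13 genes, 10 had an entry. Over the 250 bases before the start, the promoters of 9 were 74.07% to 96.05% identical in pairs (median 87.4%), while that of *Fbxw23* was 47.97% to 51.75% identical to the others. The longest stretch of letters that 9 of the 10 had in common was AGTGAGTTAAGGTGTGAG, of 18 bases. It stood in 10 of 27025 promoters of all genes (0.037%), these 9 included. As the stretch was chosen from these promoters, the count is a description and no test of enrichment. The bases from -200 to -141 relative to the start are shown for *Fbxw24*, *Fbxw18* and *Fbxw28*, which had the largest differences, and for *Fbxw23*, which lacks the stretch. All 4 genes lie on the minus strand, and capitals mark the stretch.
*Fbxw24*, chr9:109626200-109626259: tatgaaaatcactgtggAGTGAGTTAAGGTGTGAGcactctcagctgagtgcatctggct
*Fbxw18*, chr9:109702841-109702900: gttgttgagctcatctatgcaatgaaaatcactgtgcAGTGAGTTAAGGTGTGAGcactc
*Fbxw28*, chr9:109339800-109339859: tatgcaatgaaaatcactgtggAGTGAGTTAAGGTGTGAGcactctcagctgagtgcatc
*Fbxw23*, chr9:109543330-109543389: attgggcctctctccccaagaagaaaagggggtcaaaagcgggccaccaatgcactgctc
*Fbxw23* had a log2 fold change of -1.0 (limma adjusted p = 0.00295), within the range of the others, and genes at its level had a median of -1.15. Whether promoter sequence bears on these values was not tested.

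Most deubiquitinases lay above other genes of their level. Of the 29, 14 rose, 5 fell and 10 did not pass, beside 19.1% and 46.6% of all genes that rose and fell, with a median log2 fold change of 0.23 as deposited and 0.32 after quantile normalisation. On the deposited scale the median was 0.08 without control 3, and 9 then fell. In 20 of the 29 there was no overlap between the groups, near the 61.3% of all genes. Of the 15 in the highest tertile 13 rose, where 51.3% of all genes did. The median of the 500 nearest genes lay below 24 of the 29. It lay below all 18 *Usp* genes outside the *Usp17*-like family, whose median excess was 0.37. After quantile normalisation 6 deubiquitinases rose and none fell, where 7.47% of all genes rose and 4.45% fell.

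*Usp25*, a deubiquitinase that regulates signalling from receptors of innate immunity, was 8.14, 8.92, 8.92 and 8.86 on anti-VEGF 1 to 4 and 6.24, 7.30, 5.73 and 7.02 on control 1 to 4. The log2 fold change of 2.14 (standard error 0.33, limma adjusted p = 0.00124), a 4.39-fold difference, was the largest of the 110 genes. It was 1.43 after quantile normalisation (limma adjusted p = 0.0223), and genes at its level had a median of 1.00. *Usp38* was 6.42, 7.11, 7.03 and 7.06 on anti-VEGF 1 to 4 and 4.45, 5.30, 4.82 and 5.82 on control 1 to 4. Its difference was hardly smaller on the other scale, 1.81 as deposited and 1.73 after quantile normalisation (limma adjusted p = 0.00131 and 0.0274). *Usp47*, which removes ubiquitin from DNA polymerase beta, had 1.83 and 1.10 (limma adjusted p = 0.00192 and 0.0367), and genes at its level had a median of 1.01 as deposited. For all 3 the anti-VEGF values lay above all control values, and anti-VEGF 1 was the lowest of its group.

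*Usp54* and *Usp28*, which stabilises the transcription factor MYC, rose by 1.15 and 0.88, and had 1.06 and 0.80 after quantile normalisation. *Usp18* removes the interferon-induced modifier ISG15 from proteins. It was 5.29, 5.19, 5.78 and 5.77 on anti-VEGF 1 to 4 and 5.05, 4.86, 4.78 and 4.79 on control 1 to 4. The anti-VEGF values lay above the control values by a small margin. The log2 fold change was 0.64 (standard error 0.19, limma adjusted p = 0.0134), where genes at its level had a median of -0.24, and it was 0.87 after quantile normalisation (limma adjusted p = 0.0184). The call of *Usp18* was lost on the deposited scale without anti-VEGF 3 or 4 (limma adjusted p 0.0521 and 0.0533). The modifier gene *Isg15* itself fell by 0.70 as deposited (limma adjusted p = 0.0141), while genes at its level had a median of -0.95. It lay in the lowest tertile of level, where 90.3% of all genes fell. After quantile normalisation *Isg15* had 0.26 and was not called (limma adjusted p = 0.227).

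Further deubiquitinases rose on the deposited scale alone. *Usp22*, the deubiquitinase of the SAGA transcription complex, had 1.33, *Otulin*, which cuts linear ubiquitin chains, 1.21, *Usp1*, which acts in DNA repair, 1.18, and *Usp8*, which acts on endosomes, 1.17. After quantile normalisation they had 0.45, 0.73, 0.44 and 0.47 with limma adjusted p-values of 0.0591, 0.0821, 0.162 and 0.144. *Otulin* passed after cyclic loess (0.66, limma adjusted p = 0.0406). *Otub2* had -0.23 and 0.24 on these scales, not called on either. All 5 that fell lay in the lowest tertile of level. *Usp17la* was 2.43, 2.01, 2.12 and 2.39 on anti-VEGF 1 to 4 and 4.68, 3.33, 3.21 and 3.08 on control 1 to 4, and *Usp17ld*, its relative, had the same rounded log2 fold change of -1.34. They belong to a family of near copies on chromosome 7, so their values are uncertain as separate measurements. *Usp9y* of the Y chromosome had -0.91, *Usp44* -0.74 and *Usp26* -0.72, with 0.29, 0.25 and 0.09 after quantile normalisation, so none kept its direction. *Usp9y* lay at 1.94 to 2.11 on anti-VEGF arrays and 2.39 to 3.32 on control arrays. As HM-1 is an ovarian line, whether these values exceed background is doubtful and was not tested. The call of *Usp44* was lost without anti-VEGF 2 or 3 (limma adjusted p 0.0599 and 0.0636). *Usp51* had -1.06 and did not pass (limma adjusted p = 0.0585), and with control 3, its highest array at 5.22, left out it had -0.51 (0.0259).

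**Figure D3:**
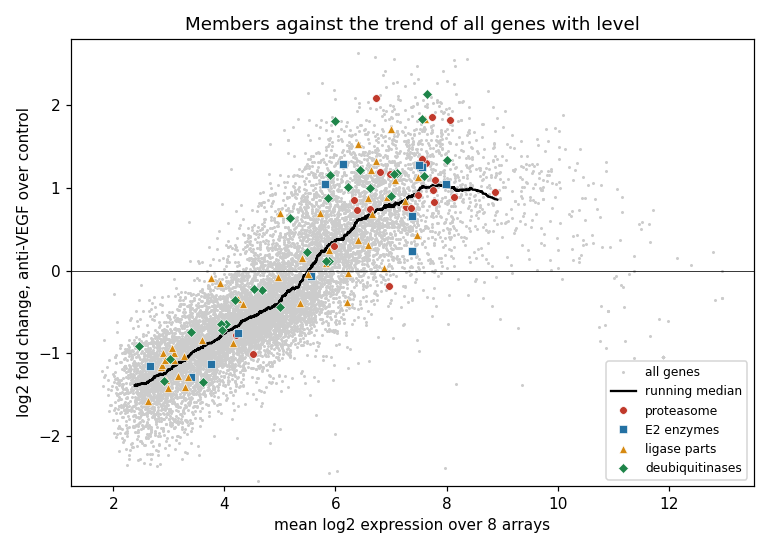
Log2 fold change (anti-VEGF over control, deposited values, y axis) against mean log2 expression over the 8 arrays (x axis) for all genes tested (grey), with the running median over neighbouring genes (black) and coloured symbols for proteasome genes, E2 enzymes, ligase parts and deubiquitinases. The running median climbs with level over most of the range, 12 of the 23 proteasome genes and 24 of the 29 deubiquitinases lie above the median of genes at their level, and the 13 Fbxw genes of chromosome 9 are among the dim genes at the lower left.

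Across all 110 genes 49 rose and 28 fell as deposited, and 16 rose and none fell on both scales, where 6.03% of all genes rose and 2.55% fell on both. The 16 were the proteasome genes *Psmd5* and *Psmd12*, the E2 genes *Ube2a* and *Ube2f*, the ligase genes *Cul4b*, *Ube3c*, *Fbxo3*, *Fbxo11*, *Fbxo33* and *Fbxo38*, and the deubiquitinase genes *Usp18*, *Usp25*, *Usp28*, *Usp38*, *Usp47* and *Usp54*. After cyclic loess 15 of the 16 rose. Of the 110 genes 63 lay in the highest tertile of level, where 51.3% of all genes rose and 4.55% fell. The shares over all genes are therefore not matched for level. The median of the 500 nearest genes lay below 69 of the 110 and above 41. Of the called genes 63.6% had risen, against 29.1% of those called over all genes. After quantile normalisation these shares were 85% and 62.7%, and after centring each array on its median 80% and 57.3%. With the acinar level as a covariate, none of the 110 genes and none of the 11667 was called by limma. The lowest adjusted p was then 0.0795, and 57 of the 110 genes and 4293 of all genes had an unadjusted p under 0.05. The log2 fold changes in that fit were 1.77 for *Usp25*, 1.69 for *Psmd5* and 1.74 for *Fbxo11*, against 2.14, 2.09 and 1.83 without the covariate.

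**Figure D4:**
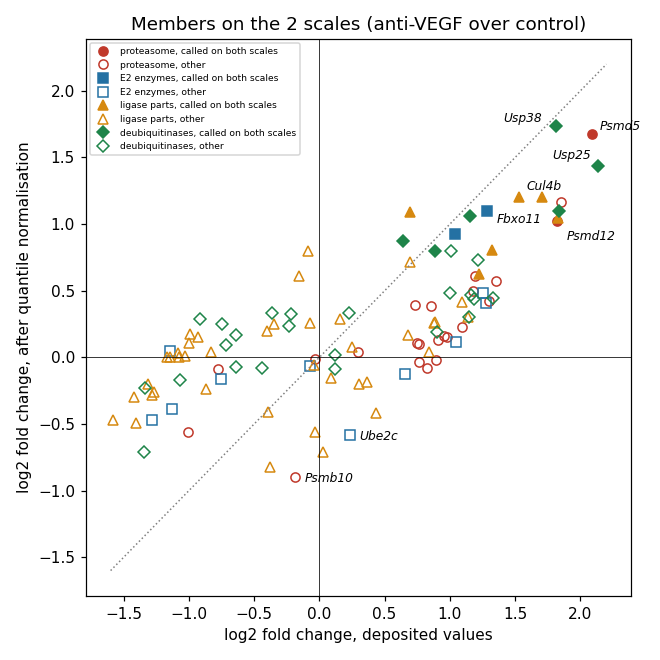
Log2 fold change of anti-VEGF over control as deposited (x axis) and after quantile normalisation (y axis) for the proteasome genes, E2 enzymes, ligase parts and deubiquitinases, where filled symbols mark genes called on both scales and the dotted line marks equal values. All 16 filled symbols lie above 0 on both axes, with Usp25 (2.14 and 1.43) and Psmd5 (2.09 and 1.67) farthest to the right, and Psmb10 is lowest on the y axis at -0.90.

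**Figure D5:**
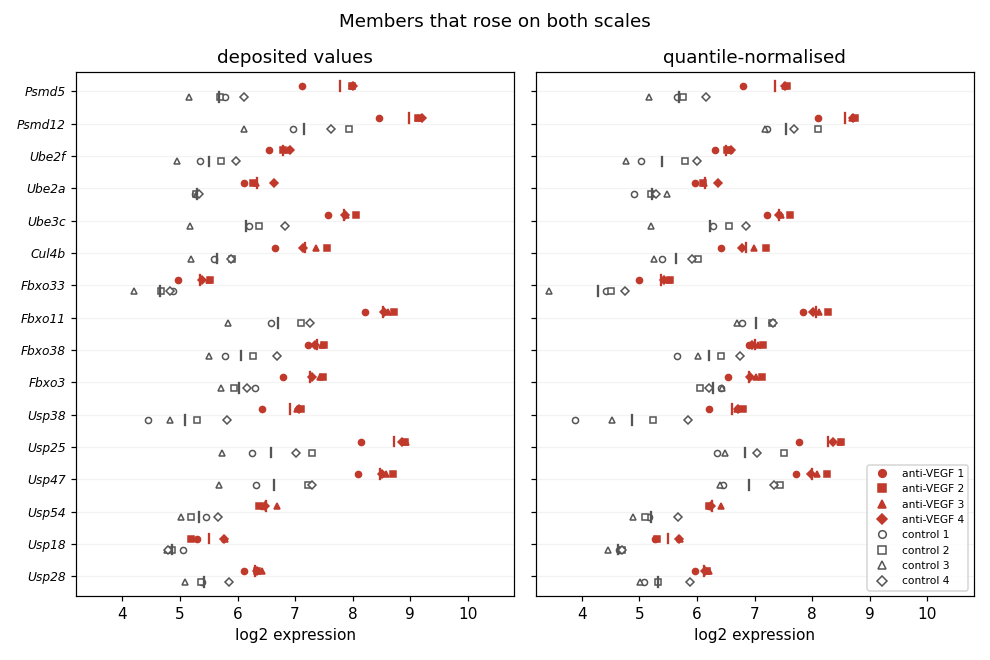
Log2 expression (x axis) on each array of the 16 genes that rose on both scales, as deposited (left) and after quantile normalisation (right), with filled red symbols for anti-VEGF tumours, open grey symbols for control tumours and bars for the group means. Anti-VEGF 1 (filled circle) is the lowest of its group as deposited for 14 of the 16, and as deposited every anti-VEGF value lies above every control value.

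Lists of further genes of the system were measured in part. Most of the measured genes were bright: of those described here all 9 proteasome regulators, all 12 cullin adaptors, 14 of 15 other ligases, 5 of 6 other deubiquitinases and 6 of 7 genes of antigen processing lay in the highest tertile of level, where 51.3% of all genes rose and the median log2 fold change was 0.60. Of 28 genes written for proteasome regulators and shuttles 9 were measured, of which 6 rose and none fell. *Uchl5*, a deubiquitinase of the regulatory particle, *Txnl1*, a thioredoxin that binds it, and *Faf1*, a cofactor of the unfolding enzyme VCP, rose by 1.71, 1.52 and 1.25 and stayed past the threshold after quantile normalisation (0.89, 0.96 and 0.82). Of 12 measured cullin adaptors and regulators (30 written) 11 rose and none fell. *Dcun1d5*, which helps to attach NEDD8 to cullins, was 7.53, 8.11, 7.89 and 7.78 on anti-VEGF 1 to 4 and 5.53, 6.15, 5.08 and 6.77 on control 1 to 4, a log2 fold change of 1.94 (limma adjusted p = 0.00141) and of 1.55 after quantile normalisation (0.0332). *Cops5*, which removes NEDD8 again as part of the COP9 signalosome, had 1.44 and 1.11, and *Nedd8* itself 1.03 and 0.17. On the second scale 3 genes of the list were called higher and 1 lower.

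Of 15 measured ligases of other families (60 written) 11 rose and none fell, and 3 rose after quantile normalisation. These were *Marchf6*, a ligase of the endoplasmic reticulum (1.92 and 1.21), *Pja2*, which acts on protein kinase A (1.81 and 1.06), and *Smurf1*, which acts on TGF-beta signalling (1.48 and 0.82). Of 6 measured deubiquitinases of other families (32 written) 4 rose, and *Stambpl1*, an enzyme of endosomes, rose on both scales (1.10 and 0.51). Of 7 measured genes of antigen processing (17 written), which act on the peptides the proteasome makes, 3 rose and none fell. *Erap1*, the peptidase that trims these peptides, was 6.19, 6.84, 6.78 and 6.76 on anti-VEGF 1 to 4 and 4.96, 5.47, 4.5 and 5.51 on control 1 to 4. It rose by 1.53 on the deposited scale (limma adjusted p = 0.00139) and by 1.54 after quantile normalisation (0.0280), where genes at its level had a median of 0.30 as deposited. The list medians were 1.07 for proteasome regulators, 1.08 for cullin adaptors, 0.88 for other ligases, 0.87 for other deubiquitinases and 0.56 for antigen processing. The genes nearest in level to those of each list had medians of 0.88, 0.80, 0.64, 0.50 and 0.63 in the same order, and the median over all genes was -0.44. Of 20 ubiquitin and E1 genes written, *Nedd8*, which rose, and *Isg15*, which fell, were measured.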

How the data were processed

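The authors hybridised total RNA to an Affymetrix mouse transcriptome array and deposited log2 expression from RMA (robust multi-array average), a procedure of background correction, quantile normalisation and summary of probes per probe set. The deposited arrays had standard deviations of 1.12 to 2.08 over genes. As RMA normalises probes before their summary, these do not settle whether the arrays were quantile-normalised as a set. RMA was run in R according to the methods, and Transcriptome Analysis Console is also named in the submitters' processing notes. The table held 13266 probe sets, and the reason for that selection is not given in the sources used here. The platform annotation named a single gene for 11743, several genes for 800 and no gene for 723. Probe sets of a single gene entered the fit, so 2 matching probe sets with several were left out. No array was left out and no dim gene removed. The number of arrays limits precision, and arrays have no read depth.

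All genes were fitted with limma 3.58.1 in R 4.3.3 (lmFit and eBayes, treatment as the only term) with Benjamini-Hochberg adjustment at 0.05. The paired difference was tested by an exact permutation over 70 assignments. Named genes were every proteasome gene, up to 5 largest rises and falls per other group without overlap, those called on both scales and a written core list, and genes called after quantile normalisation only were added after their values were seen. In the lists, up to 3 genes of smallest p were named. Members, lists and tests were chosen with earlier results of these data known. Same-numbered arrays deviated with correlations of 0.190, 0.126, -0.0367 and 0.163, so they were not taken as pairs. Alternatives were quantile normalisation of the deposited values, median centring, cyclic loess, leaving out the lowest tertile, the mean of all probe sets, trend and robust eBayes, array weights, a replicate block, the acinar level as covariate and each array left out in turn. Quantile normalisation without control 3 or without anti-VEGF 1 was added after seeing the data. Scripts were tested on simulated data. Motifs and figures used Python 3.11.15, pandas 2.3.3 and matplotlib 3.10.9.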

Additional observations from a re-analysis of the deposited data

Results flagged for a closer look

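Of 220 groups of 4 arrays examined, 1 group for each gene and treatment, 18 had an array far from the other arrays of its group, and chance flags about 1 in 20. Of the 18, 7 were control 3 and 7 were anti-VEGF 1, which had the highest acinar level of its group.

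Anti-VEGF 1 was lower than anti-VEGF 2 to 4 for *Psmd5* (7.12, others 7.99 to 8.0), *Psmd12* (8.46, others 9.13 to 9.20), *Usp25* (8.14, others 8.86 to 8.92) and *Usp38* (6.42, others 7.03 to 7.11). For these 4 genes it still lay above all control arrays. It was higher than the others for *Fbxo39* (4.28, others 3.99 to 4.01), *Fbxw13* (2.56, others 2.17 to 2.23) and *Ube2cbp* (4.99, others 4.90 to 4.91).

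Control 3 was lower than the other control arrays for *Psmb2* (5.08, others 6.30 to 6.40), *Psmb10* (6.25, others 7.30 to 7.35), *Ube2s* (5.89, others 7.41 to 7.47), *Fbxo6* (6.38, others 7.43 to 7.61) and *Fbxo10* (5.19, others 5.93 to 5.98). It was higher for *Fbxw24* (4.38, others 3.02 to 3.12) and *Fbxw28* (4.93, others 3.60 to 3.81).

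Control 1 stood high for *Usp17la* (4.68, others 3.08 to 3.33) and control 4 for *Psmg4* (6.51, others 5.54 to 5.68). Control 2 stood low for *Fbxw16* (2.77, others 3.88 to 3.96), and anti-VEGF 3 stood low for *Usp27x* (4.16, others 4.48 to 4.55).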

How the results depend on the processing

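The counts fell to 0 with the acinar level as a covariate and otherwise moved most with how the arrays were brought to 1 scale. The mean of all probe sets, the replicate block and eBayes with trend and robust changed no direction and moved no count of a gene group by over 1.5 times. With the replicate block 2159 genes rose and 5422 fell over all genes, against 2232 and 5437 without it, and no named gene changed its call. Control 2 and 3 correlated best with other numbers than their own. Quantile normalisation left 872 genes that rose and 519 that fell, and among them 2 and 1 proteasome genes, 2 and 1 E2 enzymes, 7 and 1 ligase parts and 6 and 0 deubiquitinases. Without control 3 as well, these counts were 1192 and 934, 4 and 1, 3 and 1, 7 and 2, and 9 and 0, and without anti-VEGF 1 as well 663 and 313, 2 and 1, 1 and 0, 5 and 1, and 5 and 0. After cyclic loess they were 1339 and 1110, 4 and 1, 2 and 1, 7 and 3, and 8 and 0. Median centring gave 3735 genes that rose and 2787 that fell, with 1 proteasome gene, 2 E2 enzymes, 11 ligase parts and 1 deubiquitinase that fell and 20 ligase parts that rose. Without the lowest tertile, which leaves out dim genes, 1870 genes fell, among them 1 E2 enzyme, 2 ligase parts and 1 deubiquitinase. Array weights gave 9 deubiquitinases that fell. With the acinar level as a covariate, 0 genes rose and 0 fell in every group and over all genes. With single arrays left out, 1 to 3 proteasome genes and 4 to 9 deubiquitinases fell (1 proteasome gene without anti-VEGF 2, 3 or 4, and 9 and 8 deubiquitinases without control 3 and 4). The difference of *Psmb10* minus *Psmb7* was then -1.32 to -0.98, where 3 arrays against 4 cannot reach p under 0.05. Apart from the settings' own construction, the cause was not tested.

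The median log2 fold change changed sign for E2 enzymes to -0.0090 after quantile normalisation, -0.015 after cyclic loess and -0.0040 after quantile normalisation without anti-VEGF 1. For ligase parts it became 0.040, 0.056 and 0.066 under these 3 settings, 0.033 after quantile normalisation without control 3, 0.34 after median centring and 0.40 without the lowest tertile.

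Of 80 named genes, 24 changed sign under at least 1 alternative. After quantile normalisation these were *Psmd3* (-0.038), *Psmd7* (-0.021), *Psmd8* (-0.077), *Ube2s* (-0.13), *Ube2c* (-0.58), *Ube2u* (0.045), *Skp2* (-0.19), *Usp9y* (0.29), *Usp26* (0.095), *Usp44* (0.25), *Otub2* (0.24), *Fbxo47* (0.80) and *Isg15* (0.26). After cyclic loess they were *Psmc5* (-0.090), *Psmd3* (-0.12), *Psmd7* (-0.090), *Psmd8* (-0.13), *Psmg4* (-0.022), *Ube2s* (-0.23), *Ube2c* (-0.65), *Ube2u* (0.14), *Skp2* (-0.18), *Usp9y* (0.44), *Usp26* (0.065), *Usp44* (0.26), *Otub2* (0.23), *Fbxo47* (0.77), *Usp51* (0.081) and *Isg15* (0.27). After quantile normalisation without anti-VEGF 1 they were *Psmb8* (0.018), *Psmd3* (-0.11), *Psmd8* (-0.090), *Psmg4* (-0.046), *Ube2s* (-0.14), *Ube2c* (-0.55), *Ube2u* (0.055), *Skp2* (-0.14), *Usp9y* (0.345), *Usp26* (0.12), *Usp44* (0.30), *Otub2* (0.25), *Fbxo47* (0.88) and *Isg15* (0.29). After quantile normalisation without control 3 they were *Psmb7* (-0.11), *Psmc4* (-0.098), *Psmc5* (-0.23), *Psmd3* (-0.13), *Psmd8* (-0.063), *Ube2s* (-0.35), *Ube2c* (-0.66), *Ube2dnl2* (0.076), *Skp2* (-0.076), *Usp9y* (0.30), *Otub2* (0.20), *Fbxo47* (0.72), *Usp51* (0.55) and *Isg15* (0.32). Median centring turned *Psmb8* (0.38), *Psmb10* (0.23), *Psmc3ip* (0.19), *Ube2l6* (0.35), *Otub2* (0.19), *Fbxo2* (0.036) and *Fbxo47* (0.33). The acinar covariate turned *Psmb8* (0.091), *Psmb10* (0.14), *Ube2l6* (0.12) and *Fbxo2* (0.014). Array weights turned *Ube2c* (-0.031). With single arrays left out, *Psmb8* ranged from -0.21 without control 3 to 0.061 without control 1, with 0.036 without control 2 and 0.011 without anti-VEGF 2, and *Ube2c* ranged from -0.067 without control 3 to 0.42 without control 2.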
